A study of Mus musculus with 6 samples.

Results

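The 34 genes described here encode the enzymes of cholesterol and fatty acid synthesis, the proteins that control them through the sterol regulatory element-binding proteins (SREBPs), and 3 genes of sterol transport and the liver X receptor (LXR) arm. The rule that chose them is a list of gene names, and all 34 were found among the 51361 genes of a count table. After a filter on low counts, 33 of the 34 were among the 16657 genes tested, and the untested member was Fads2.

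The libraries came from regulatory T cells (Tregs), a suppressive class of CD4+ T cell, sorted by flow cytometry as CD4+CD25+Foxp3+ cells into lysis buffer at 500 to 1000 cells per library. The first group, tMCAO brain, came from the brain of mice 14 days after 60 min of transient middle cerebral artery occlusion, a model of ischaemic stroke with reperfusion. The second group, tMCAO blood, came from the blood of mice after the same procedure and time, and the third, sham blood, from the blood of sham-operated mice. Each group had 2 libraries, called its pair below, and no brain group from sham-operated mice was analysed here. All mice, controls included, were young males aged 9 weeks on the C57BL/6N background and carried Tg(Foxp3-DTR/EGFP)23.2Spar, a transgene in which Foxp3 control sequences drive a diphtheria toxin receptor fused to a green fluorescent protein. The labels do not say whether 2 libraries of 1 group stem from different mice or from pools. The p-values therefore speak only of how far these libraries spread, and that spread may be technical.

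Cells make cholesterol from acetyl-CoA through the mevalonate pathway, which ends in farnesyl diphosphate, and then through squalene and a chain of sterol intermediates. SREBPs are transcription factors held in the endoplasmic reticulum by Scap and the Insig proteins while sterols are plentiful, and released to the nucleus to switch on these enzymes when sterols fall. LXRs are nuclear receptors that sense oxidised sterols and switch on genes of cholesterol export. In activated T cells cholesterol and fatty acid synthesis are known to supply membranes for growth. In Tregs the mevalonate pathway is known to be needed for suppressive function.

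Of the 33 tested members, 4 passed the test in at least 1 comparison. By comparison, 3.03% of the members passed between brain and tMCAO blood, 9.09% between tMCAO blood and sham blood and 6.06% between brain and sham blood, beside 4.9%, 7.48% and 10.6% of all genes tested. Mylip, the LXR target that marks lipoprotein receptors for degradation, rose in brain libraries, at 3.77 times its level in tMCAO blood and 5.22 times its level in sham blood. Acly and Acaca, the enzymes that make acetyl-CoA and malonyl-CoA for fatty acid synthesis, rose in tMCAO blood, to 2.89 and 6.03 times their levels in sham blood. Fdft1, which makes squalene, fell in tMCAO blood to a level 3.03-fold below sham blood. Acaca also rose in brain libraries, at 2.92 times its level in sham blood, and no other member passed the test in any of the 3 comparisons.

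Promoter sequence was read for the members these results turn on, from RefSeq windows on GRCm38.p6 that run from 250 bases before to 50 bases after a gene's start and are 300 bases long. Both strands were searched for 2 motifs: TCACNCCAC, the core of the sterol response element bound by SREBPs, and CCAAT, the box bound by NF-Y, which is known to act beside SREBPs. The windows matched 27 of the 34 members by symbol, with none for Fdps, Fdft1, Sqle, Stard4, Scd1, Scd2 or Fads1. TCACNCCAC was found in 1 of the 27, Hmgcs1, and in 1.44% of the 27025 genes of the table. CCAAT was found in 21 of the 27 (77.8%), against 41.1% of all genes of the table. By role, CCAAT was found in 9 of 9 genes of the squalene and sterol steps, 5 of 6 of the mevalonate pathway, 4 of 5 of SREBP control, 1 of 2 of the LXR arm and 2 of 5 of fatty acid synthesis. A match is a description of the letters and not a binding site. The windows below are shown because Hmgcs1 holds the only sterol response core among the members matched and because Mylip, Acly and Acaca passed the test. Capitals mark the motifs, with CCAAT read as ATTGG on the opposite strand.
Hmgcs1, chr13:119690101-119690400, plus strand: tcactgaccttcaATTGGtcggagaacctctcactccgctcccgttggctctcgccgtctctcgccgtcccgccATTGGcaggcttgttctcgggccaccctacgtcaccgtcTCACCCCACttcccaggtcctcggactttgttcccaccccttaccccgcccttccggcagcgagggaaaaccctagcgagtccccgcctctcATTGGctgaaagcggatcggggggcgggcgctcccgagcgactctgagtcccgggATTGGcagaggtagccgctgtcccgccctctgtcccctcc
Mylip, chr13:45389492-45389791, plus strand: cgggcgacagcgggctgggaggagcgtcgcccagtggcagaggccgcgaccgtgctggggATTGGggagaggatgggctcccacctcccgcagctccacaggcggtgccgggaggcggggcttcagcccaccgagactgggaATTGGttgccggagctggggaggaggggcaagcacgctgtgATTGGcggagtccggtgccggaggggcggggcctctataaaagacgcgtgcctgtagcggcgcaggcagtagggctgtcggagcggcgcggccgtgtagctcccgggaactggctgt
Acly, chr11:100527951-100528250, minus strand: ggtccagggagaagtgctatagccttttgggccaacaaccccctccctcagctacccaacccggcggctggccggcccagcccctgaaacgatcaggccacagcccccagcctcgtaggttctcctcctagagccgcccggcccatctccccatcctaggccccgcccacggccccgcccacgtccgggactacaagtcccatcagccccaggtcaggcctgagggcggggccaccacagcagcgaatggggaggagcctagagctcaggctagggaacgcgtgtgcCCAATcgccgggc
Acaca, chr11:84195188-84195487, plus strand: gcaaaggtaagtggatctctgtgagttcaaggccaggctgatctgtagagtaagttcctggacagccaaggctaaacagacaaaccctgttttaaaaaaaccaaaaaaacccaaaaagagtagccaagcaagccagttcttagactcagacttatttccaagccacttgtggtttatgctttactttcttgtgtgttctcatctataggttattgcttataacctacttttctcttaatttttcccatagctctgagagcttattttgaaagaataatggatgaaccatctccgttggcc
In Hmgcs1 the sterol response core began 137 bases before the start, among 4 CCAAT boxes. The Mylip window held 3 CCAAT boxes and the Acly window 1. The Acaca window held neither motif in these letters, and it lies inside the annotated gene, chr11:84129672-84401651, and not at its outermost start.

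Total counts per library ran between 14348179 and 24460894, and the 34 members together held 0.068% to 0.1195% of them. Foxp3, which defines the sorted cells, stood at 0.726 and 19.6 CPM (counts scaled to a common library total) in brain libraries 1 and 2, 0.538 and 5.18 CPM in tMCAO blood libraries 1 and 2, and 50.1 and 60.7 CPM in sham blood libraries 1 and 2. A list of 16 T cell genes summed to 349 and 1547 CPM in brain libraries, 680 and 3721 CPM in tMCAO blood libraries, and 8031 and 7999 CPM in sham blood libraries. All 16 were detected in every library, but library 1 of both tMCAO groups held the 2 lowest sums. The data thus go against the label most in those libraries, and the difference of each called member is also given without them. That fit leaves 1 library in each tMCAO group, so its spread rests on the sham blood pair. For single members only its log2 differences are given. The 13 microglial genes summed to 11500 and 9693 CPM in the brain pair, 752 and 666 CPM in the tMCAO blood pair, and 311 and 413 CPM in the sham blood pair; Sall1, a defining microglial gene, was at 0 in all 4 blood libraries. Genes of monocytes and macrophages (13 genes, none at 0 in any library) summed to 41900 and 13720 CPM in the brain pair, 30970 and 10390 CPM in the tMCAO blood pair, and 7031 and 5900 CPM in the sham blood pair. Red cell genes (8 of 9 listed were in the table) summed to 0.968 and 0 CPM in the brain pair, 1112 and 31550 CPM in the tMCAO blood pair, and 147200 and 165400 CPM in the sham blood pair. The part of these other cell types in the results below was not tested. In bulk libraries, fewer cells of a type and less RNA per cell cannot be told apart.

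Levels are CPM scaled by the trimmed mean of M-values (TMM), which compares 1 gene between libraries. Summed over the 34 members, the level was 817 and 935 CPM in the brain pair, 869 and 992 CPM in the tMCAO blood pair, and 908 and 969 CPM in the sham blood pair, so the 3 groups overlapped. Divided by exon length, Ebp was among the highest members in every group, at 38.1 and 29.9 CPM per kb in the brain pair, 47.5 and 39.0 CPM per kb in the tMCAO blood pair, and 55.6 and 42.3 CPM per kb in the sham blood pair. The rank of other members depended on the group: Mylip stood at 41.8 and 27.02 CPM per kb in the brain pair, 7.43 and 10.8 CPM per kb in the tMCAO blood pair, and 6.06 and 7.12 CPM per kb in the sham blood pair, where Sc5d was higher at 19.4 and 23.3 CPM per kb. Averaged over the 6 libraries, the lowest were Fads2 at 0.121 CPM per kb and Fdps at 0.177 CPM per kb.

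**Figure D1:**
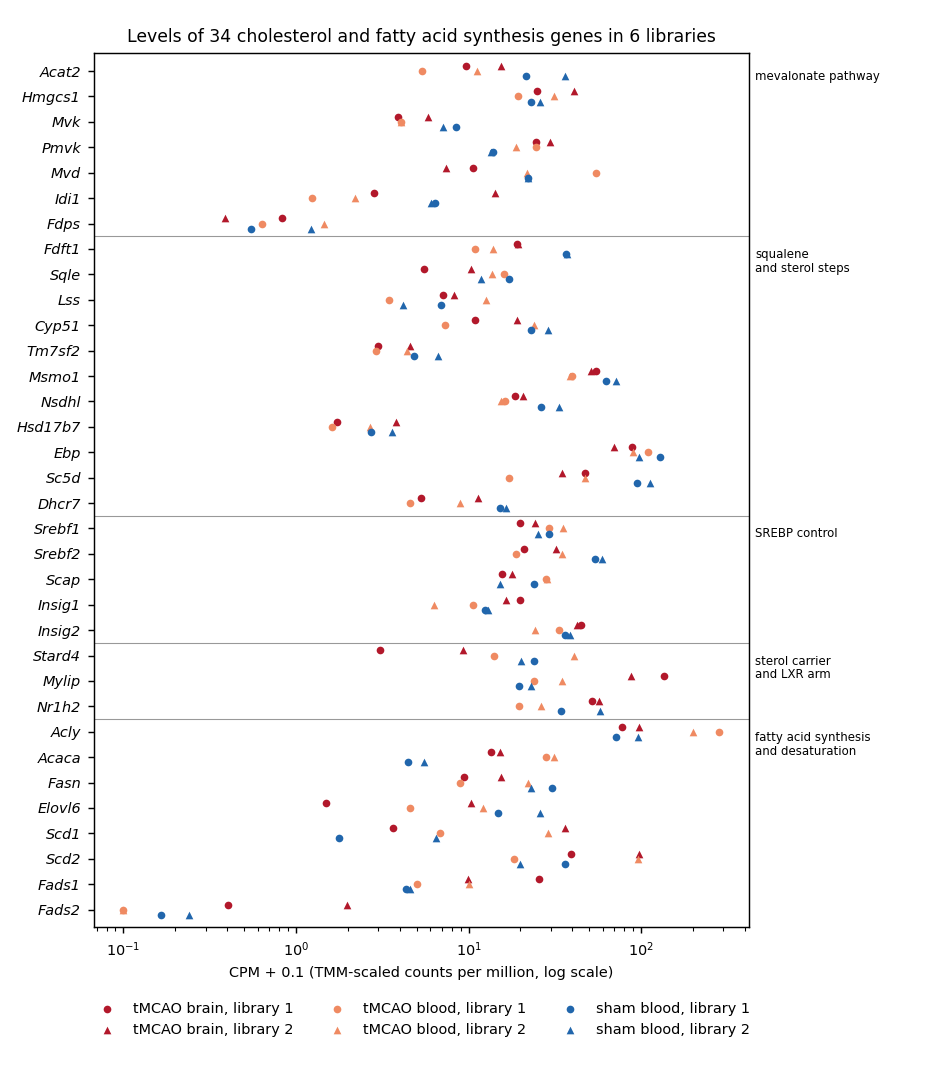
TMM-scaled CPM of each of the 34 members (vertical axis, grouped by role) on a log axis after adding 0.1, with 1 symbol per library: colour gives the group, circles library 1 and triangles library 2. Mylip stands apart to the right in the 2 brain libraries at 87.3 and 135 CPM, and Acly in the 2 tMCAO blood libraries at 201 and 283 CPM.

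Tests were made with edgeR's quasi-likelihood test on all 16657 genes, with Benjamini-Hochberg adjustment over all of them and a threshold of 0.05. Between brain and tMCAO blood, 1 of 33 members was called higher and 0 lower, while 3.53% of all genes were called higher and 1.37% lower. At an unadjusted p under 0.05 in edgeR stood 24.2% of the members and 28% of all genes, and DESeq2 called 21.2% of the members and 20.8% of all genes. Between tMCAO blood and sham blood, 2 members were called higher and 1 lower, beside 4.33% and 3.15% of all genes. An unadjusted p under 0.05 was reached by 27.3% of the members and 29.6% of all genes, and DESeq2 called 21.2% of the members and 22.7% of all genes. Between brain and sham blood, 2 members were called higher and 0 lower, beside 8.01% and 2.62% of all genes. Here 27.3% of the members and 30.2% of all genes had an unadjusted p under 0.05, and DESeq2 called 18.2% of the members and 24.1% of all genes. Members that DESeq2 called and edgeR did not were Acaca, Acly, Idi1, Mvd, Nr1h2 and Stard4 for brain relative to tMCAO blood. They were Acat2, Msmo1, Nsdhl and Sc5d for tMCAO blood relative to sham blood, and Fads1, Fdft1, Pmvk and Stard4 for brain relative to sham blood. The median log2 difference of the 33 members was 0.26 for brain relative to tMCAO blood, -0.38 for tMCAO blood relative to sham blood and -0.34 for brain relative to sham blood. Over all genes tested the medians were 0.06, 0.11 and 0.09 in the same order. The comparisons share libraries, so their values are not independent of each other.

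**Figure D2:**
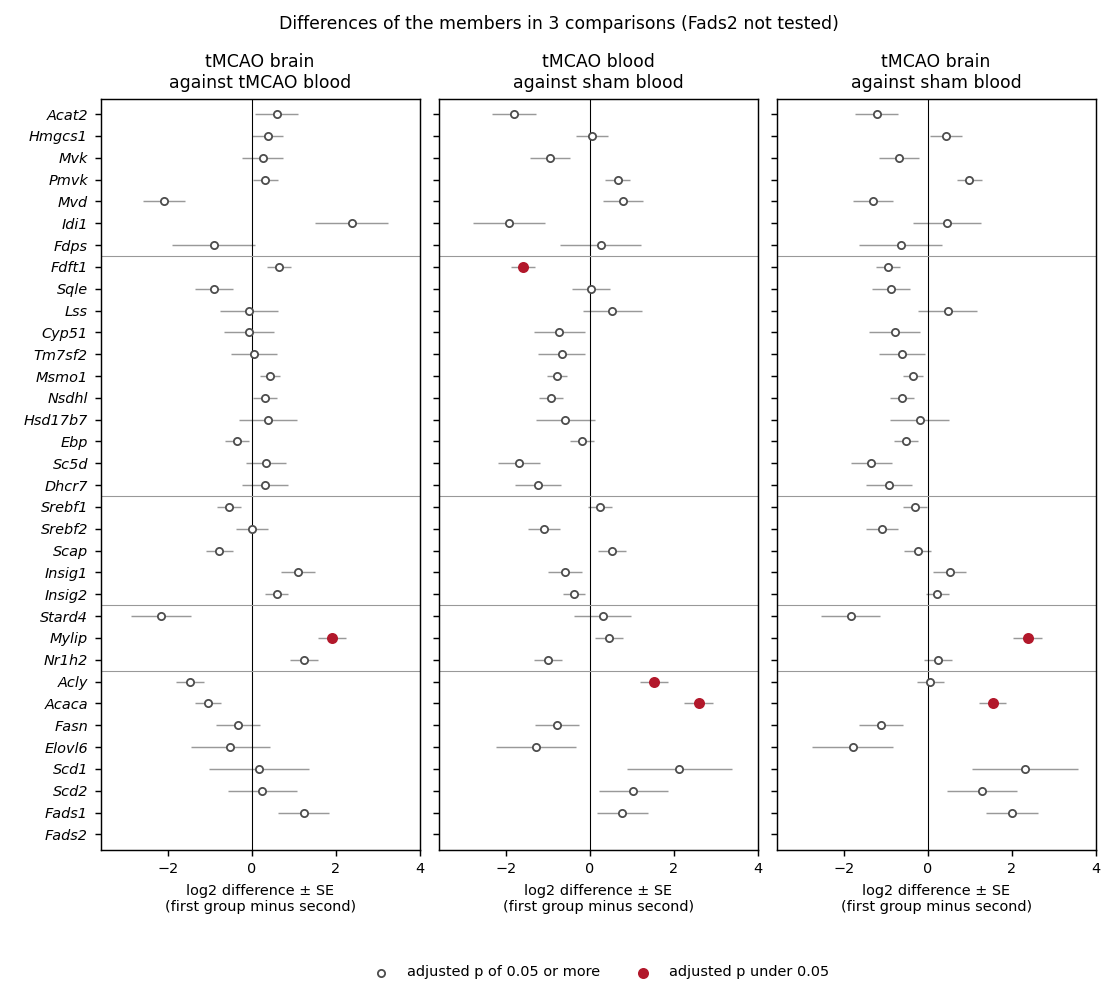
Log2 difference of each tested member (vertical axis, grouped by role) in 3 comparisons, with bars of 1 SE; filled red points passed an adjusted p of 0.05 in edgeR. Filled points are Mylip in brain relative to tMCAO blood (1.92); Fdft1 (-1.60), Acly (1.53) and Acaca (2.59) in tMCAO blood relative to sham blood; and Mylip (2.38) and Acaca (1.55) in brain relative to sham blood.

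The 7 members of the mevalonate pathway gave no call in any comparison, with 2, 1 and 2 of the 7 at an unadjusted p under 0.05 for brain relative to tMCAO blood, tMCAO blood relative to sham blood and brain relative to sham blood, beside 28%, 29.6% and 30.2% of all genes. Hmgcs1, which condenses acetyl-CoA with acetoacetyl-CoA, had 24.9 and 40.9 CPM in the brain pair, 19.3 and 31.3 CPM in the tMCAO blood pair, and 23.0 and 25.96 CPM in the sham blood pair, so all 3 groups overlapped. Mvd, which makes isopentenyl diphosphate, had 10.5 and 7.31 CPM in the brain pair, 54.4 and 21.8 CPM in the tMCAO blood pair, and 22.0 CPM in each sham blood library. Both brain libraries lay below the other 4, and tMCAO blood library 1 stood alone at the top. The brain level was 4.27-fold below tMCAO blood (log2 difference -2.10 ± 0.49 SE, adjusted p = 0.0637 in edgeR), short of the threshold. DESeq2 gave an adjusted p of 0.00238. Mvd overlaps another annotated coding gene, Gm20388, on the opposite strand, whose level was not read.

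Idi1, which isomerises isopentenyl diphosphate, had 2.72 and 14.1 CPM in the brain pair, 1.13 and 2.09 CPM in the tMCAO blood pair, and 6.29 and 5.98 CPM in the sham blood pair. Brain lay above tMCAO blood by 5.21-fold (log2 2.38 ± 0.86 SE, edgeR adjusted p = 0.139), and brain library 2 alone lay above the sham pair. Of its 75-base stretches, 23.6% also occur in other annotated transcripts. Pmvk, a kinase of the pathway, had 24.5 and 29.4 CPM in the brain pair, 24.4 and 18.6 CPM in the tMCAO blood pair, and 13.8 and 13.4 CPM in the sham blood pair. Pmvk was thus in the order brain, tMCAO blood, sham blood, and the brain level was 1.98 times that of sham blood (edgeR adjusted p = 0.0867).

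Acat2, which makes acetoacetyl-CoA, went the other way, with 9.56 and 15.2 CPM in the brain pair, 5.28 and 11.2 CPM in the tMCAO blood pair, and 21.4 and 36.1 CPM in the sham blood pair. Both sham blood libraries lay above the other 4, and the log2 difference was -1.81 ± 0.52 SE for tMCAO blood relative to sham blood (edgeR adjusted p = 0.0823, DESeq2 adjusted p = 0.0122). Acat2 shares 33.9% of its 75-base stretches with other genes, mainly Acat3, which had at most 5 counts in a library. Mvk, mevalonate kinase, had 3.81 to 5.72 CPM in the 4 tMCAO libraries and 7.04 to 8.41 CPM in the sham blood pair. Fdps, farnesyl diphosphate synthase, had 7 to 27 counts per library and overlaps another annotated coding gene on the same strand, so its level is uncertain.

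The squalene and sterol steps were the role with most members high in sham blood. Of 11 enzymes, both sham blood libraries lay above the other 4 for 6 (Fdft1, Tm7sf2, Msmo1, Nsdhl, Sc5d and Dhcr7), a pattern that 17.4% of all genes showed. Summed over the 11, the level was 261 and 252 CPM in the brain pair, 229 and 271 CPM in the tMCAO blood pair, and 417 and 424 CPM in the sham blood pair. The median log2 difference of the 11 was 0.31 for brain relative to tMCAO blood, -0.72 for tMCAO blood relative to sham blood and -0.61 for brain relative to sham blood. Only Fdft1 passed the test; 4 of the 11 were at an unadjusted p under 0.05 for tMCAO blood relative to sham blood, beside 29.6% of all genes, and 2 for brain relative to sham blood, beside 30.2%. The T cell list was also highest in sham blood, as given above, and so was the red cell list, and their part in these differences was not tested.

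Fdft1, squalene synthase (chr14:63145150-63179578, minus strand, GRCm38), had 19.0 and 19.4 CPM in the brain pair, 10.8 and 13.7 CPM in the tMCAO blood pair, and 36.8 and 37.3 CPM in the sham blood pair. The 3 groups did not overlap, with tMCAO blood lowest and sham blood highest. The log2 difference was -1.60 ± 0.29 SE for tMCAO blood relative to sham blood (edgeR adjusted p = 0.0363), and -0.95 ± 0.28 SE for brain relative to sham blood, which missed the threshold (edgeR adjusted p = 0.0794). Without library 1 of both tMCAO groups the first log2 difference was -1.39. The call was lost without tMCAO blood library 1 (edgeR adjusted p = 0.115), sham blood library 1 (0.211) or sham blood library 2 (0.282). Fdft1 overlaps Ctsb, a lysosomal protease gene on the opposite strand, and 21.8% of its 75-base stretches also occur in other transcripts. Whether counting used strand was not given, so reads of Fdft1 and Ctsb may not be told apart; Ctsb had 18610 and 11450 CPM in the brain pair, 3073 and 1471 CPM in the tMCAO blood pair, and 885 and 1401 CPM in the sham blood pair.

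Sc5d, which puts in a double bond of the sterol ring, had 47.1 and 34.7 CPM in the brain pair, 17.2 and 47.3 CPM in the tMCAO blood pair, and 94.4 and 113 CPM in the sham blood pair. Brain and tMCAO blood overlapped, and both lay below sham blood, with log2 differences from it of -1.34 ± 0.49 SE (edgeR adjusted p = 0.13) and -1.69 ± 0.50 SE (edgeR adjusted p = 0.0864). Msmo1, a sterol methyl oxidase, had 54.8 and 50.8 CPM in the brain pair, 39.7 and 38.5 CPM in the tMCAO blood pair, and 62.3 and 71.8 CPM in the sham blood pair. Nsdhl, which acts in the same removal of methyl groups, had 18.5 and 20.5 CPM in the brain pair, 16.2 and 15.3 CPM in the tMCAO blood pair, and 26.1 and 33.6 CPM in the sham blood pair. Msmo1 and Nsdhl therefore had the same order of groups as Fdft1, with no overlap between any of the 3, but neither passed the edgeR test for tMCAO blood relative to sham blood (adjusted p = 0.0926 and 0.0982). DESeq2 gave Sc5d, Msmo1 and Nsdhl an adjusted p under the threshold in that comparison (0.0145 for Sc5d, 0.0195 for Msmo1 and 0.0251 for Nsdhl).

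Dhcr7, the last reductase of the route, had 5.20 and 11.3 CPM in the brain pair, 4.47 and 8.87 CPM in the tMCAO blood pair, and 15.2 and 16.3 CPM in the sham blood pair. Ebp, the sterol isomerase, was the enzyme of this role with the highest level per exon length, and had 88.1 and 69.2 CPM in the brain pair, 110 and 90.2 CPM in the tMCAO blood pair, and 128 and 97.7 CPM in the sham blood pair. Its brain libraries lay just below the other 4, and its largest difference was a log2 of -0.52 ± 0.29 SE for brain relative to sham blood (edgeR adjusted p = 0.277). Sqle, squalene epoxidase and a rate-limiting step, had 5.45 and 10.3 CPM in the brain pair, 15.9 and 13.6 CPM in the tMCAO blood pair, and 17.1 and 11.7 CPM in the sham blood pair. Sqle was thus low in brain while both blood groups overlapped. Lss, Cyp51, Tm7sf2 and Hsd17b7, the cyclase, demethylase and reductases of the chain, ran between 1.51 and 28.6 CPM over all libraries, and none passed the test in any comparison.

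Among the 5 genes of SREBP control none passed the test; 1 was at an unadjusted p under 0.05 in each comparison, beside 28% to 30.2% of all genes. Srebf2, the SREBP that mainly drives cholesterol synthesis, had 21.0 and 32.2 CPM in the brain pair, 18.7 and 34.5 CPM in the tMCAO blood pair, and 53.7 and 59.6 CPM in the sham blood pair. Both tMCAO groups overlapped at means of 26.6 CPM each, and sham blood lay above them, with a log2 difference of -1.09 ± 0.39 SE from it in both (edgeR adjusted p = 0.122 for brain and 0.127 for tMCAO blood). Srebf1, the SREBP that mainly drives fatty acid synthesis, had 19.7 and 24.2 CPM in the brain pair, 29.0 and 35.1 CPM in the tMCAO blood pair, and 29.1 and 25.1 CPM in the sham blood pair, so its brain libraries lay below the other 4. Srebf1 and Srebf2 transcripts did not keep the same order of groups.

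Insig2, which retains the SREBPs, had 44.8 and 42.2 CPM in the brain pair, 33.3 and 24.1 CPM in the tMCAO blood pair, and 35.9 and 38.6 CPM in the sham blood pair. Insig1, the SREBP-induced form, had 19.7 and 16.4 CPM in the brain pair, 10.6 and 6.18 CPM in the tMCAO blood pair, and 12.4 and 12.8 CPM in the sham blood pair. For both Insig genes the brain libraries lay above the other 4 and the tMCAO blood libraries below the other 4. Insig1 in brain was 2.16 times its level in tMCAO blood (log2 1.11 ± 0.40 SE, edgeR adjusted p = 0.137). Scap, the escort protein, did not share this order, with 15.4 and 17.7 CPM in the brain pair, 27.9 and 28.6 CPM in the tMCAO blood pair, and 24.01 and 15.2 CPM in the sham blood pair. Scap was highest in both tMCAO blood libraries and overlapped between brain and sham blood.

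Mylip (chr13:45389742-45412022, plus strand, GRCm38) had the smallest adjusted p among the members. It encodes the ubiquitin ligase, also called Idol, that LXR induces and that removes lipoprotein receptors. It had 135 and 87.3 CPM in the brain pair, 24.01 and 34.9 CPM in the tMCAO blood pair, and 19.6 and 23.0 CPM in the sham blood pair. Both brain libraries lay above the other 4 by a wide gap, with library 1 higher. The log2 difference was 2.38 ± 0.35 SE for brain relative to sham blood (edgeR adjusted p = 0.0161) and 1.92 ± 0.34 SE for brain relative to tMCAO blood (edgeR adjusted p = 0.0385). Between tMCAO blood and sham blood it was 0.47 ± 0.33 SE (edgeR adjusted p = 0.384). Without library 1 of both tMCAO groups the log2 differences were 2.01 from sham blood and 1.25 from tMCAO blood. The second fold was thus over 1.5 times smaller, and it compares 1 library with 1 library.

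The Mylip call against sham blood was lost without sham blood library 1 (edgeR adjusted p = 0.181) or library 2 (0.15). The call against tMCAO blood was lost without any single library, at 0.104 and 0.0571 without brain libraries 1 and 2, 0.101 and 0.0782 without tMCAO blood libraries 1 and 2, and 0.134 and 0.12 without sham blood libraries 1 and 2. It was also lost with only these groups in the fit (0.102). The microglial list moved with Mylip, at 11500 and 9693 CPM in brain and at most 752 CPM in blood, and its part in the Mylip result was not tested. The sum of 10 dendritic cell genes also moved with Mylip, at 3991 and 5876 CPM in the brain pair. It was 1249 and 810.5 CPM in the tMCAO blood pair, and 673 and 1676 CPM in the sham blood pair. H2-Ab1 held 3154 and 4446 CPM of the sum in the brain pair. Ccr7 overlapped between brain (589 and 746 CPM) and sham blood (492 and 675 CPM), and Batf3 between brain and tMCAO blood. The rest of the list lay above every blood library in both brain libraries. All 10 were detected in both brain libraries and in sham blood library 2, Fscn1 was at 0 in the other 3 libraries, and the part of this list was not tested either.

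Nr1h2, which encodes LXR beta, had 51.7 and 57.3 CPM in the brain pair, 19.6 and 26.4 CPM in the tMCAO blood pair, and 34.1 and 57.6 CPM in the sham blood pair. It was low in tMCAO blood and overlapped between brain and sham blood, with a log2 difference of 1.25 ± 0.34 SE for brain relative to tMCAO blood (edgeR adjusted p = 0.0827). Stard4, a carrier that moves cholesterol between membranes and is known as an SREBP target, had 2.96 and 9.23 CPM in the brain pair, 13.9 and 40.7 CPM in the tMCAO blood pair, and 23.9 and 19.98 CPM in the sham blood pair. Its brain libraries were the lowest of the 6. The brain level was 4.45-fold below tMCAO blood (log2 -2.15 ± 0.71 SE, edgeR adjusted p = 0.115), and tMCAO blood library 2 held the highest value.

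Genes around LXR were read from a list of 8 that are not members: receptors and their partners, LXR targets, and the related transporter Abca7. For brain relative to tMCAO blood 2 were called higher and 1 lower, beside 3.53% and 1.37% of all genes. For tMCAO blood relative to sham blood 2 were higher and 0 lower in edgeR, beside 4.33% and 3.15% of all genes; 3 of the 8 had an unadjusted p under 0.05, none of them lower, beside 29.6% of all genes. For brain relative to sham blood 2 were higher and 1 lower, beside 8.01% and 2.62% of all genes. Abca1, the main cholesterol exporter to lipid-poor apolipoprotein, had 493 and 335 CPM in the brain pair, 86.0 and 73.2 CPM in the tMCAO blood pair, and 7.64 and 7.25 CPM in the sham blood pair. The 3 groups stood far apart, and all 3 differences passed in edgeR, with log2 values of 2.38 ± 0.32 SE for brain relative to tMCAO blood (adjusted p = 0.0237), 3.42 ± 0.33 SE for tMCAO blood relative to sham blood (0.0313) and 5.80 ± 0.37 SE for brain relative to sham blood (0.00841). Abcg1, an exporter to high-density lipoprotein, had 408 and 393 CPM in the brain pair, 108 and 99.9 CPM in the tMCAO blood pair, and 127 and 98.2 CPM in the sham blood pair. For Abcg1 both blood groups overlapped and the brain pair lay above them (edgeR adjusted p = 0.027 against tMCAO blood and 0.0181 against sham blood). Abca7, a transporter of the same family, was lower in brain, at 13.6 and 13.9 CPM, than in tMCAO blood at 42.5 and 43.4 CPM or sham blood at 39.5 and 30.4 CPM (edgeR adjusted p = 0.0338 and 0.0333). Rxra, the partner receptor of LXR, rose in tMCAO blood, at 33.2 and 29.3 CPM, against 6.93 and 2.67 CPM in sham blood (edgeR adjusted p = 0.0391). In brain Rxra had 13.85 and 11.4 CPM, below both tMCAO blood libraries (edgeR adjusted p = 0.148). Nr1h3, which encodes LXR alpha, had 18.8 and 6.09 CPM in the brain pair and 54.6 and 54.9 CPM in the tMCAO blood pair. In the sham blood pair Nr1h3 had 3.98 and 10.9 CPM. Its log2 difference was -2.14 ± 0.67 SE for brain relative to tMCAO blood (edgeR adjusted p = 0.105), short of the threshold.

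**Figure D3:**
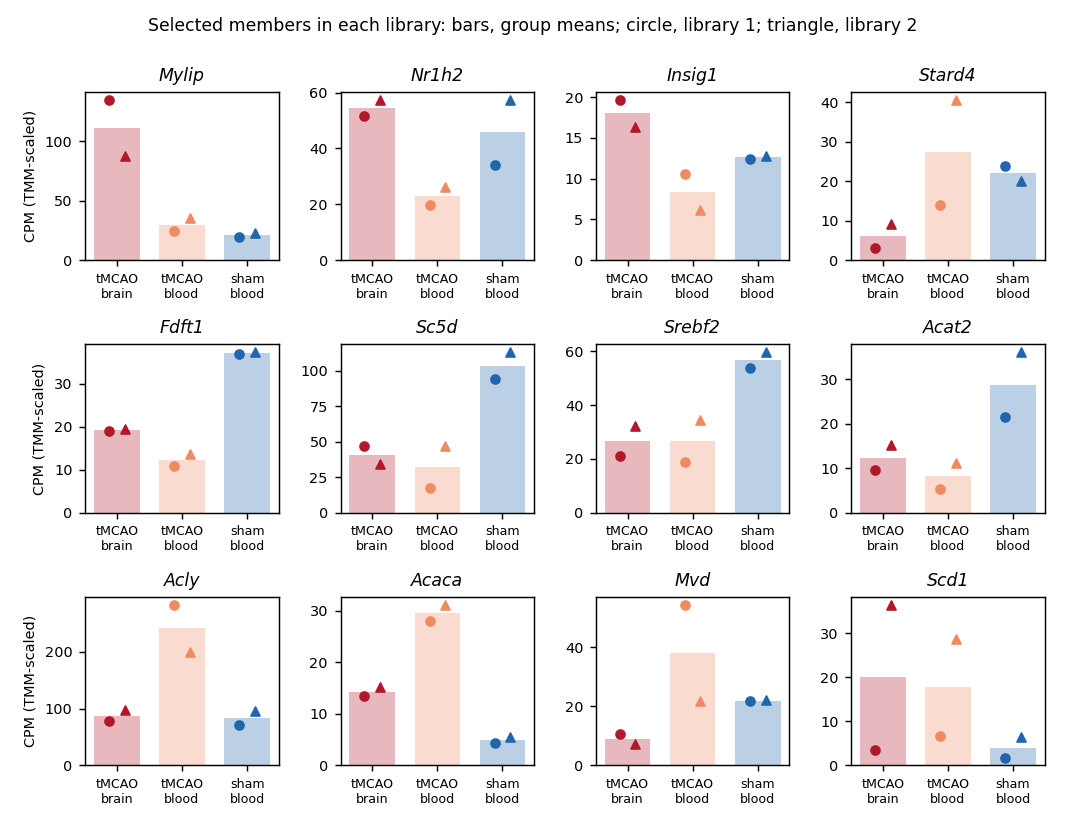
TMM-scaled CPM of 12 members in each library (vertical axes start at 0), by group from left to right: tMCAO brain, tMCAO blood, sham blood; bars are means of 2 libraries, circles library 1 and triangles library 2. Mylip is high in both brain libraries (135 and 87.3 CPM), Fdft1 and Sc5d are high in both sham blood libraries, Acly and Acaca are high in both tMCAO blood libraries, and Scd1 differs more within the tMCAO groups than between them.

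Of the 7 tested members of fatty acid synthesis, 0 were called for brain relative to tMCAO blood. For tMCAO blood relative to sham blood 2 were called, and for brain relative to sham blood 1. Of all genes, 4.9%, 7.48% and 10.6% were called in the same order. All of these member calls were of Acly or Acaca. Acly (chr11:100476353-100528000, minus strand, GRCm38), which splits citrate into acetyl-CoA, had 77.4 and 97.1 CPM in the brain pair, 283 and 201 CPM in the tMCAO blood pair, and 71.2 and 96.1 CPM in the sham blood pair. Both tMCAO blood libraries lay above the other 4, while brain and sham blood overlapped. The log2 difference was 1.53 ± 0.32 SE for tMCAO blood relative to sham blood (edgeR adjusted p = 0.0465), -1.47 ± 0.32 SE for brain relative to tMCAO blood (edgeR adjusted p = 0.0571) and 0.06 ± 0.32 SE for brain relative to sham blood (edgeR adjusted p = 0.924). The call was lost with DESeq2 size factors (edgeR adjusted p = 0.0512) and without brain library 1 (0.0603), brain library 2 (0.0586), tMCAO blood library 1 (0.137), sham blood library 1 (0.279) or sham blood library 2 (0.292). Without library 1 of both tMCAO groups the log2 difference of tMCAO blood from sham blood was 1.31.

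Acaca, acetyl-CoA carboxylase and the committed step of fatty acid synthesis, had 13.4 and 15.2 CPM in the brain pair, 27.9 and 31.1 CPM in the tMCAO blood pair, and 4.37 and 5.42 CPM in the sham blood pair. The 3 groups did not overlap. The log2 difference from sham blood was 1.55 ± 0.32 SE in brain (edgeR adjusted p = 0.0369) and 2.59 ± 0.34 SE in tMCAO blood (edgeR adjusted p = 0.0313), and that of brain from tMCAO blood was -1.04 ± 0.32 SE (edgeR adjusted p = 0.0982). Without library 1 of both tMCAO groups the log2 differences from sham blood were 1.61 in brain and 2.71 in tMCAO blood. The tMCAO blood call was lost in edgeR without tMCAO blood library 1, sham blood library 1 or sham blood library 2. The brain call was lost with only brain and sham blood in the fit (edgeR adjusted p = 0.0552). It was also lost without brain library 1, brain library 2, tMCAO blood library 2, sham blood library 1 or sham blood library 2. Other annotated transcripts hold 26.8% of the 75-base stretches of Acaca. Of these, Gm5182 had at most 3 counts in a library, and levels of the others were not read. Acaca also overlaps an annotated coding gene, Gm11437, on the opposite strand, whose level was not read either. Whether counting used strand was not given. The summed level of monocyte and macrophage genes was also higher in both tMCAO groups than in sham blood, as given above. Lyz2 held 30330 and 8455 CPM of that sum in the brain pair. Not all genes of the list followed: Ccr2 and Chil3 were lower in brain than in sham blood, and Plac8 overlapped between them. In tMCAO blood, Lyz2, Ccr2 and Ms4a7 overlapped sham blood. The part of this list in the Acly and Acaca results was not tested.

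The enzymes after Acaca did not share its order. Fasn, fatty acid synthase, had 9.26 and 15.3 CPM in the brain pair, 8.83 and 22.1 CPM in the tMCAO blood pair, and 30.4 and 22.9 CPM in the sham blood pair. Elovl6, which lengthens palmitate, had 1.39 and 10.2 CPM in the brain pair, 4.47 and 12.1 CPM in the tMCAO blood pair, and 14.8 and 25.7 CPM in the sham blood pair. For Fasn and Elovl6 both sham blood libraries lay above the other 4, whereas for Acaca they lay below, and neither passed the test (edgeR adjusted p = 0.353 and 0.397 for tMCAO blood relative to sham blood).

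The desaturases Scd1 and Scd2, which make oleate and palmitoleate, varied widely between libraries of 1 group. Scd1 had 3.57 and 36.4 CPM in the brain pair, 6.73 and 28.7 CPM in the tMCAO blood pair, and 1.67 and 6.403 CPM in the sham blood pair. Its tMCAO blood mean was 4.39 times that of sham blood, with a log2 difference of 2.13 ± 1.26 SE (edgeR adjusted p = 0.299). Scd2 had 39.0 and 97.8 CPM in the brain pair, 18.3 and 96.2 CPM in the tMCAO blood pair, and 36.1 and 19.7 CPM in the sham blood pair. For both genes library 2 was the higher library in brain and in tMCAO blood, and no difference between groups passed the test. In brain library 2, B cell genes summed to 10780 CPM, against 237 CPM in brain library 1. Igkc alone held 9271 CPM of the former sum, and Cd22 was lower in brain library 2 than in brain library 1. Oligodendrocyte genes summed to 737 CPM in brain library 2, against 160 CPM in brain library 1, and to 427 and 444 CPM in the sham blood pair. Cnp held 326 and 365 CPM of the sham blood sums, and 6 of the 10 listed genes were at 0 in each sham blood library. Neutrophil genes summed to 311 and 6487 CPM in the tMCAO blood pair, but to 2116 and 243 CPM in the brain pair. The part of these lists in the level of Scd1 and Scd2 was not tested.

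Fads1, a desaturase of polyunsaturated fatty acids, had 25.4 and 9.85 CPM in the brain pair, 4.90 and 10.02 CPM in the tMCAO blood pair, and 4.24 and 4.50 CPM in the sham blood pair. Its brain mean was 4.03 times that of sham blood (log2 2.01 ± 0.62 SE, edgeR adjusted p = 0.0888), and brain and tMCAO blood overlapped. Fads2, the partner desaturase, had 5 and 46 counts in brain, 0 in both tMCAO blood libraries, and 1 and 2 in sham blood. Against the 3 counts that a total of 0 allows over the tMCAO blood group, the brain level was at least 16.02-fold higher; against sham blood the ratio was 12.4 (95% interval 3.99 to 61.9, counting error only). Most of the Fads2 counts lay in brain library 2.

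Over the 33 tested members, both brain libraries lay above both tMCAO blood libraries for 9 and below them for 8, beside 31.4% and 25.9% of all genes. Both tMCAO blood libraries lay above sham blood for 7 members and below for 16, beside 33.6% and 30.4% of all genes. Both brain libraries lay above sham blood for 8 and below for 17, beside 34.9% and 29.7% of all genes. Both brain libraries lay above the other 4 for 4 members (Pmvk, Insig1, Insig2 and Mylip; 18.8% of all genes) and below for 5 (Mvd, Sqle, Ebp, Srebf1 and Stard4; 12.3%). Both tMCAO blood libraries lay above the other 4 for 3 members (Scap, Acly and Acaca; 16.1%) and below for 7 (Idi1, Fdft1, Msmo1, Nsdhl, Insig1, Insig2 and Nr1h2; 15%). Both sham blood libraries lay above the other 4 for 11 members (17.4% of all genes), of which 6 belong to the squalene and sterol steps, and below for 4 (Pmvk, Mylip, Acaca and Fads1; 18.7%).

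Differences between the libraries of a group were large in both tMCAO groups. The median absolute log2 difference between libraries 1 and 2 of a group was 0.60 for the brain pair, 0.74 for the tMCAO blood pair and 0.31 for the sham blood pair over the members, and 0.54, 0.61 and 0.33 over all genes in the same order. Library 2 was the higher one for 24 of 33 members in the brain pair, 24 in the tMCAO blood pair and 22 in the sham blood pair, beside 49.8%, 47.2% and 47.6% of all genes. The largest within-group differences in brain were 3.31 for Scd1, 2.78 for Elovl6 and 2.33 for Idi1 on the log2 scale, and in tMCAO blood 2.39 for Scd2, 2.07 for Scd1 and 1.88 for Lss. The T cell list was also higher in library 2 of both tMCAO groups, as given above, and its part in these differences was not tested.

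**Figure D4:**
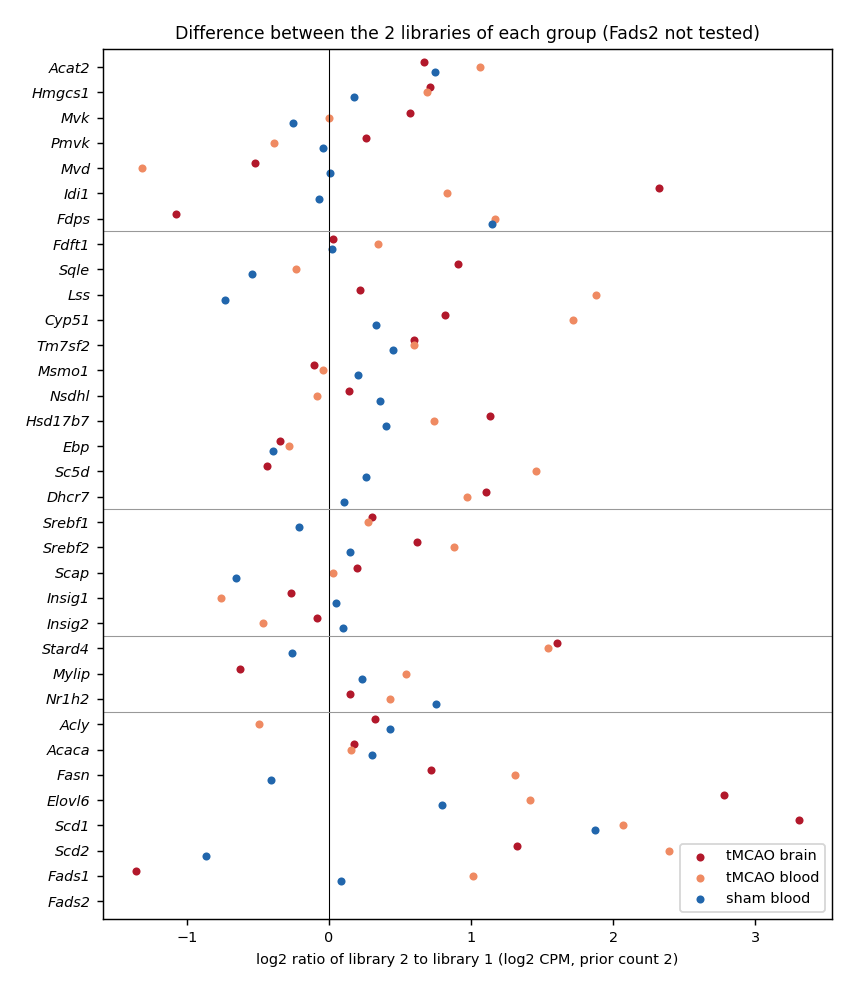
Log2 ratio of library 2 to library 1 within each group (horizontal axis) for the 33 tested members, grouped by role; points right of 0 are higher in library 2. Scd1 lies farthest right in brain (3.31) and Scd2 in tMCAO blood (2.39), while most sham blood points lie close to 0.

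Other lipid genes were read from 6 lists of 68 genes that are not members, of which 64 were tested. For brain relative to tMCAO blood 8 were called higher and 1 lower, beside 3.53% and 1.37% of all genes. For tMCAO blood relative to sham blood 3 were higher and 2 lower, beside 4.33% and 3.15%. For brain relative to sham blood 10 were higher and 1 lower, beside 8.01% and 2.62%. The list of sterol storage, transfer and oxidation, with 11 genes tested, held 5 of these 10. They were Ch25h, Cyp27a1, Nceh1, Soat1 and Npc2, of which Npc2 was named after its values were seen. Ch25h, the enzyme that makes 25-hydroxycholesterol, had 1201 and 1214 counts in brain, 1 and 0 in tMCAO blood, and 0 in both sham blood libraries. Its brain level was 2276 times that in tMCAO blood (95% interval 408 to 89920, counting error only; edgeR adjusted p = 0.0148) and at least 585-fold above sham blood (edgeR adjusted p = 0.00841). Cyp27a1, which makes 27-hydroxycholesterol, had 93.8 and 49.1 CPM in the brain pair, 14.1 and 15.1 CPM in the tMCAO blood pair, and 13.2 and 14.0 CPM in the sham blood pair (edgeR adjusted p = 0.0333 and 0.0188 for brain relative to each). Both are enzymes that make oxidised sterols, which are ligands of LXR.

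Soat1, which esterifies cholesterol for storage, had 278 and 146 CPM in the brain pair, 137 and 97.7 CPM in the tMCAO blood pair, and 62.2 and 46.4 CPM in the sham blood pair, and passed for brain relative to sham blood (edgeR adjusted p = 0.037). Nceh1, which releases stored cholesterol, had 204 and 89.8 CPM in the brain pair, 82.3 and 34.4 CPM in the tMCAO blood pair, and 15.6 and 13.2 CPM in the sham blood pair, and passed in the same comparison (edgeR adjusted p = 0.0246). Among genes of fatty acid elongation and storage, Dgat1, which makes triacylglycerol, had 72.6 and 174 CPM in the brain pair, 19.9 and 27.2 CPM in the tMCAO blood pair, and 32.5 and 32.0 CPM in the sham blood pair (edgeR adjusted p = 0.0443 and 0.0471 for brain relative to each). Thrsp, a cofactor of lipid synthesis in liver, had 240 and 295 counts in brain and 0 in all 4 blood libraries, at least 168-fold higher in brain than in tMCAO blood and at least 130-fold higher than in sham blood (edgeR adjusted p = 0.027 and 0.0166). Hacd2, an enzyme of fatty acid elongation, passed for brain relative to tMCAO blood, at 67.8 and 74.5 CPM in the brain pair and 26.8 and 16.7 CPM in the tMCAO blood pair (edgeR adjusted p = 0.0417).

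Acadvl, which starts the oxidation of very long fatty acids, was low in tMCAO blood, at 19.4 and 24.4 CPM in the brain pair, 2.64 and 0.598 CPM in the tMCAO blood pair, and 13.7 and 21.5 CPM in the sham blood pair. It passed for brain relative to tMCAO blood (higher, edgeR adjusted p = 0.0456) and for tMCAO blood relative to sham blood (lower, edgeR adjusted p = 0.0465). Tecr, an enzyme of elongation, fell in tMCAO blood, with 127 and 125 CPM, against 313 and 288 CPM in sham blood (edgeR adjusted p = 0.0438). Nus1, of the dolichol branch, rose in tMCAO blood, with 136 and 65.0 CPM, against 28.6 and 17.2 CPM in sham blood (edgeR adjusted p = 0.0457). The calls of non-members named here were lost without sham blood library 1 or 2, except that of Ch25h for brain relative to tMCAO blood. Ch25h and Thrsp passed the filter on low counts only through the brain libraries, where they are high. Their calls therefore add nothing beyond those counts.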

How the data were processed

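The authors deposited raw counts per gene, obtained with STAR and HTSeq 0.11.2 on GRCm38, per the submitters' processing notes; strand and multi-mapping settings and the annotation release are not given in the sources used here. Libraries were paired-end 75-bp reads from SMART-Seq cDNA and a Nextera XT kit, per the labels' protocols; those protocols name neither a strand-marking step nor molecular identifiers. The 6 libraries, 2 per group, were fitted together in R 4.3.3 with edgeR 4.0.16 (filterByExpr with a minimum count of 10, TMM scaling, quasi-likelihood test with 3 residual degrees of freedom, Benjamini-Hochberg adjustment over all 16657 genes, threshold 0.05). DESeq2 1.42.0, limma 3.58.1 (voom), other scalings and filters, a replicate block and left-out libraries were the alternatives. Scripts were tested on simulated data. The members and lists were chosen with earlier results of these data known. Named in full by rule were members that passed and the 2 highest by mean CPM in each role. The rule also covered members whose groups did not overlap and differed by over 4-fold. Most other members were given by library as well, outside this rule. Up to 4 passing genes were named per other list. Exon lengths, overlaps and shared 75-base stretches came from GENCODE transcripts on GRCm38. Intervals and limits from counts cover counting error only.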

Additional observations from a re-analysis of the deposited data

How the results depend on the processing

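No log2 difference of a called gene reversed under any of the 14 alternatives. Members called higher between brain and tMCAO blood (1) numbered 4 with no filter on low counts, 3 with DESeq2, 0 with only the groups compared (edgeR; 2 at an unadjusted p under 0.05), and 0 with any single library left out (edgeR; 3 to 5 at an unadjusted p under 0.05). Members called lower (0) numbered 3 with no filter, 2 with the strict filter of 5 CPM in 2 libraries, 4 with DESeq2 and 1 with limma-voom, and 0 with any single library left out (edgeR; 2 to 6 at an unadjusted p under 0.05). Of all genes, 11.5% were called with no filter, 11.3% with the strict filter, 20.8% with DESeq2, 8.68% with limma-voom, 0.162% with only the groups compared and 0.16% to 1.67% with single libraries left out. Between tMCAO blood and sham blood, those called higher (2) numbered 1 with DESeq2 size factors and 0 to 2 with single libraries left out; those called lower (1) numbered 3 with no filter, 5 with DESeq2 and 0 to 2 with single libraries left out. Of all genes, 6.91% were called with DESeq2 size factors, 11.6% with no filter, 22.7% with DESeq2 and 0 to 6.52% with single libraries left out. Between brain and sham blood, those called higher (2) numbered 5 with no filter, 4 with DESeq2, 1 with only the groups compared and 0 to 2 with single libraries left out; those called lower (0) numbered 4, 2 and 2 in the same settings and 0 to 1 with single libraries left out. Of all genes, 14.3% were called with no filter, 24.1% with DESeq2, 17.8% with only the groups compared and 0 to 11% with single libraries left out. An alternative chosen after seeing the data left out library 1 of both tMCAO groups, so that the spread rests on the sham blood pair: it called 2 higher and 3 lower between brain and tMCAO blood, 4 and 2 between tMCAO blood and sham blood, and 5 and 5 between brain and sham blood, beside 19.9%, 21.2% and 27.4% of all genes called.

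In a fit with the replicate block, members called higher between tMCAO blood and sham blood numbered 1, since Acly missed the threshold (edgeR adjusted p = 0.0546), and those called lower numbered 2, with Acat2 added (edgeR adjusted p = 0.0405), beside 7.91% of all genes called. Among genes of the other lists, Acadvl and Hacd2 lost their calls between brain and tMCAO blood (edgeR adjusted p = 0.0515 each), as did Tecr between tMCAO blood and sham blood (0.0573). The libraries share only a number: same-numbered deviations correlated at 0.304 between brain and tMCAO blood, -0.0285 between brain and sham blood and -0.0702 between tMCAO blood and sham blood.

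With 2 libraries per group, calls rest on few libraries. Without sham blood library 1 or 2, edgeR called 0 of all genes between brain and sham blood, although 3160 and 3005 stood at an unadjusted p under 0.05. Between tMCAO blood and sham blood, 0 were called without tMCAO blood library 1, sham blood library 1 or sham blood library 2, with 3843, 3155 and 2490 at an unadjusted p under 0.05. A fit without 1 library takes the lone library of its group to vary like the other groups. Levels of Fdps and Fads2 are limited by depth.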
